A study of Mus musculus with 7 samples.

Results

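The genes described here are 35 genes of glucose use: 2 glucose transporters, the enzymes of glycolysis, lactate dehydrogenase, pyruvate dehydrogenase, pyruvate carboxylase and enzymes of the citric acid cycle. They were chosen by name as genes of these pathways, with earlier results of these data known. All 35 symbols matched 1 row each among the 48526 Ensembl genes of the deposited table, and all 35 lay above the minimum mean value of 3 that left 17896 genes for testing. RNA of mouse brain was sequenced in 7 libraries, all from mice of 24 months that carry the V1S and SV2 constructs, with Venus, a fluorescent protein, in their labels. The groups are on (4 libraries, labelled glucose) and off (3 libraries, labelled Dox, for doxycycline). The sources used here do not give how, how much and how long either agent was supplied, the promoter that drives the constructs, the strain, the sex or the brain region. Since glucose, doxycycline and construct state all differ between the groups, their effects on genes of glucose metabolism cannot be told apart. Transcripts of the constructs were not analysed here, so the on and off labels have no check of their own. Nothing in the labels states whether libraries came from different mice, so the spread behind each p-value may be technical.

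Glucose enters the brain through transporters of the Slc2a family, Slc2a1 in the endothelium of the blood-brain barrier and in astrocytes and Slc2a3 in neurons. Glycolysis splits it into pyruvate in the cytosol, first spending ATP in the preparatory steps and then gaining it in the payoff steps. Lactate dehydrogenase interconverts pyruvate and lactate, pyruvate dehydrogenase turns pyruvate into acetyl-CoA in mitochondria, and the citric acid cycle oxidises it. Several of the enzymes exist as isoforms with a known cell preference, such as Aldoc in astrocytes and Eno2 in neurons.

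The sequences just before the starts of Pgk1, Idh3g and Fh1 are shown because these 3 members had the smallest p-values of the comparison described below. Each is the 250 bases before the start, written 5′ to 3′ along the gene, from RefSeq on GRCm38.p6. Capitals mark the words ACGTG and GCGTG on either strand (CACGT and CACGC on the other), the core of the hypoxia response element, which binds hypoxia-inducible factors and is known from promoters of glycolysis genes. The Pgk1 stretch lies at chrX:106186850-106187099 on the plus strand, that of Idh3g at chrX:73786898-73787147 and that of Fh1 at chr1:175625636-175625885, both on the minus strand.
Pgk1: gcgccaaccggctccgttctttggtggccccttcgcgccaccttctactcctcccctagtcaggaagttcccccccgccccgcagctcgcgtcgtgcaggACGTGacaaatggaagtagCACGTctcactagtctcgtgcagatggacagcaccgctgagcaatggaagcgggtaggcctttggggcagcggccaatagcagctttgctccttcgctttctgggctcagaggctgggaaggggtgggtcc
Idh3g: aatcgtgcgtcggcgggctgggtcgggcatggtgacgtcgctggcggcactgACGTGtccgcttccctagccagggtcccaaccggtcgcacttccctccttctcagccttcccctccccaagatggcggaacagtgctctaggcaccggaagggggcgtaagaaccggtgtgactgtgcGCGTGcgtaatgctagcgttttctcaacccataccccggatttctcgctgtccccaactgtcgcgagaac
Fh1: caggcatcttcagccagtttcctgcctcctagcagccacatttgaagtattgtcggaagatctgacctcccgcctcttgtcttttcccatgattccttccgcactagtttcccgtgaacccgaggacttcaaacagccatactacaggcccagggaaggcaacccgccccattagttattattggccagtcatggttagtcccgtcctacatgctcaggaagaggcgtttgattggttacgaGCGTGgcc
The word occurs 2 times in the Pgk1 stretch, 2 times in that of Idh3g and 1 time in that of Fh1. RefSeq windows were found for 33 of the 35 members (50 windows, since some genes have several starts), and 36 of the 50 (72.0%) hold at least 1 such word. The same holds for 52.3% of 16288 windows of tested genes and for 38.6% of all 32851 windows, and the median GC content is 59.2% both in member windows and in those of tested genes. The E-box CACGTG, which overlaps ACGTG, occurs in 6 of the 50 windows, in Pfkm, Ldha, Pcx and Ogdh, against 7.71% of the windows of tested genes. The words describe the letters only, and the windows of 1 gene overlap in part.

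Over the whole table on replicate 1 stood apart from the other on libraries. Its score on the first principal component (47.7% of the variance) was -4.1, beside the off libraries (-8.64 to -3.56), while on replicates 2 to 4 scored 7.19 to 9.15. Neuron markers were high in all libraries, from 12.90 to 16.52. Of 7 olfactory bulb genes, 4 were lower in on (Omp, Doc2g, S100a5 and Th) at a limma adjusted p under 0.05, where 1.79% of all tested genes were. All 7 differences lay below 0, with a median of -0.31. After the correction for GC content and length described below, the median was -0.27. Omp (limma adjusted p = 0.0333) and Doc2g (0.0433) then passed, and S100a5 (0.0545) and Th (0.101) did not. Whether the share of olfactory bulb in the tissue bears on the members was not tested.

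Levels are regularized logarithms (rlog), log2 values in which the deviations of each gene from its mean are shrunk. For levels between genes, log2 of the transcript length in kilobases was subtracted. The length is that of the longest basic transcript in the annotation. Another transcript may be the expressed form, so the order of genes depends on that choice. On that scale per length, the highest member in the off libraries was Aldoa, the aldolase of most tissues, at 14.88 ± 0.06 (SD, n = 3). Gapdh followed at 14.15 ± 0.04 (SD, n = 3) and Pkm, the pyruvate kinase gene, at 14.13 ± 0.04 (SD, n = 3), a gap smaller than either SD. Mdh1 (13.85), Aldoc (13.66), Ldhb (13.61), Eno2 (13.51) and Tpi1 (13.41) came next in level per length. The lowest was Hk2, the hexokinase known from muscle and fat, at 5.24, far under Pcx (9.62) and Slc2a1 (9.96). Hk1, the hexokinase of brain, stood at 11.44, so the levels of the isoforms span most of the members' range.

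**Figure D1:**
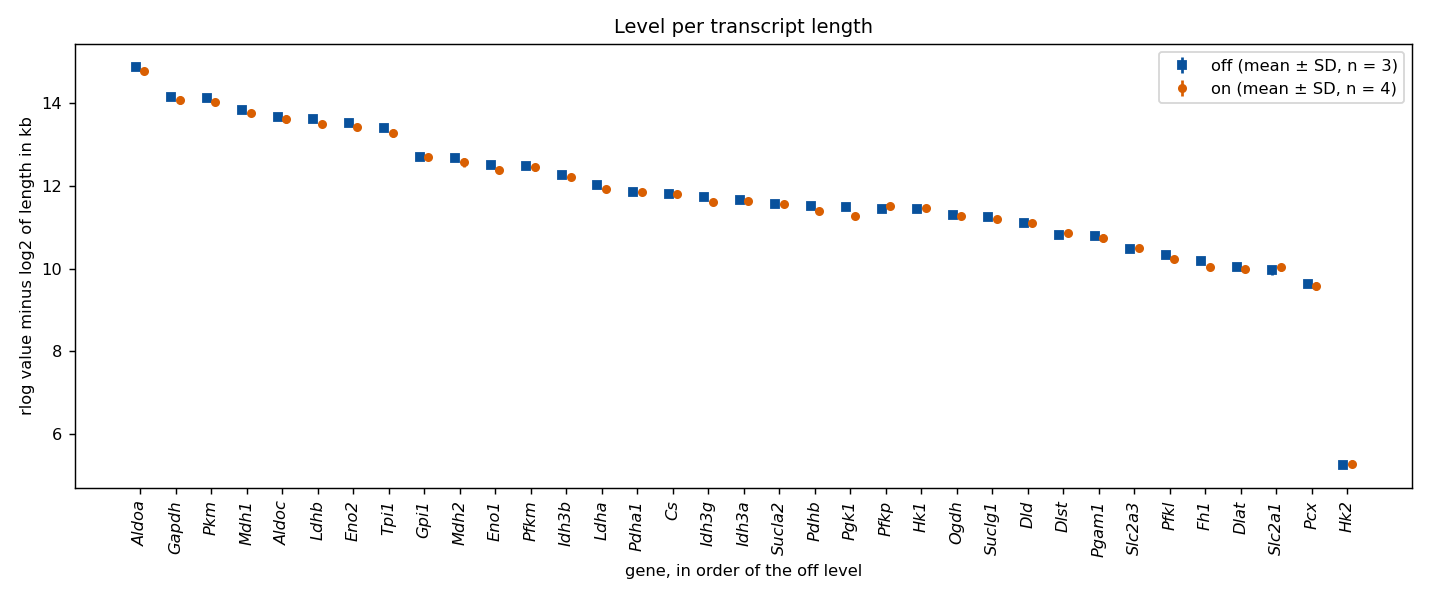
Level of each member, as rlog value minus log2 of transcript length in kilobases (vertical axis), as mean ± SD of 3 off (squares) and 4 on (circles) libraries, in order of the off level. Aldoa is highest at 14.88 and Hk2 lowest at 5.24 in off, and on and off lie close together for every gene at this scale.

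Some levels may be uncertain because other transcripts share their sequence. Of the 35 members, 14 have at least 1 other gene in the table whose transcript matches at 90% identity or more over 300 bases or more, and 190 of these 201 genes are annotated as pseudogenes. Gapdh has 163 such genes, 18 of them with a mean value of 3 or more, the most abundant being 3000002C10Rik at 7.4. Ldha has 11, Pkm 6 and Aldoa 5. Pgk1 has 2, and its pseudogene Pgk1-rs7 matches at 100% over 1255 bases and has a mean value of 0.9. Pfkp and Pdha1 match a tested protein-coding gene at 100%, Pitrm1 over 748 bases and Map3k15 over 426 bases. The search compared both strands and kept neither strand nor position. Whether a match comes from genes that overlap on opposite strands was not checked. For Idh3g, Fh1, Slc2a1 and Dlst the search found 0. The sources used here do not say how reads with several matches were counted.

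Of the 35 members 1 passed the threshold (adjusted p under 0.05, limma with Benjamini-Hochberg adjustment over all tested genes): Pgk1 was lower in on. The background is close to that share, since 466 of all 17896 tested genes passed (2.6%), 320 of them lower in on (1.79%). At an unadjusted p under 0.05, 8 members were lower and 0 higher in on, where 10.6% of all tested genes were lower and 10% higher. At an adjusted p under 0.1, Idh3g and Fh1 joined Pgk1, 3 of 35 lower against 4.06% of all genes, and with array weights at 0.05 Pdhb did too, 4 of 35 against 6.34%. The difference lay below 0 in 28 of 35 members, with a median of -0.05, against 48.5% of all tested genes and a median of 0.00. The 95% intervals of the other 34 members run from -0.23 at the lowest (Fh1) to 0.19 at the highest (Slc2a1). In a bulk sample, fewer cells of a type and less RNA per cell cannot be told apart.

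**Figure D2:**
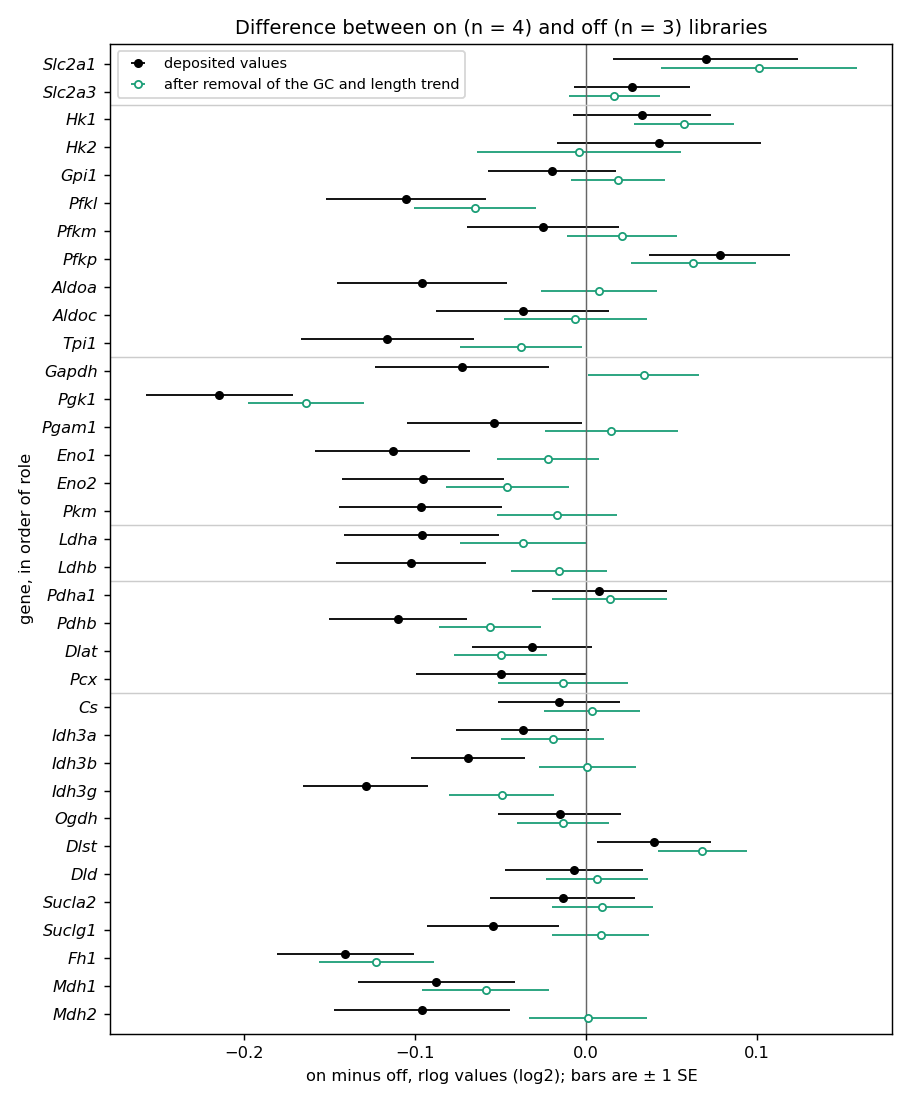
Difference between on (n = 4) and off (n = 3) libraries for each member on the log2 scale of rlog values (horizontal axis), with bars of ± 1 SE, from the deposited values (filled) and after removal of the trends with GC content and length (open). Pgk1 lies farthest left at -0.21 and at -0.16 after the removal, and 28 filled but 18 open points lie below 0.

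Without on replicate 1, 7 of 35 members were lower in on past the threshold (Tpi1, Pgk1, Eno1, Ldhb, Idh3g, Fh1 and Mdh2), where 8.02% of all tested genes were, and the median of the members was -0.08. Deviations from the gene means followed transcript length and GC content over all genes in most libraries. For length, Spearman's rho across genes, which are not independent replicates, was -0.32 to -0.231 in off, -0.0445 in on replicate 1 and 0.269 to 0.287 in on replicates 2 to 4. For GC content it was 0.174, -0.466, -0.142 and -0.305 in on replicates 1 to 4 and -0.107, 0.245 and 0.588 in off replicates 1 to 3. The members' median transcript has 2580 bases against 2947 for all genes, and 24 of 35 lie above the median GC content of all genes. Of the 26 members shorter than that median of all genes, 24 lay below 0, and of the 9 others 4 did. After the trends with GC content and length were removed from each library, the median of the members was -0.0042, 18 of 35 lay below 0 and 0 passed the limma threshold, where 0.336% of all genes did.

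Glucose transporter genes did not pass. Slc2a1 was 11.62, 11.78, 11.77 and 11.78 in on replicates 1 to 4 and 11.74, 11.54 and 11.72 in off replicates 1 to 3. On replicate 1 and off replicate 2 were low, the other 5 libraries lay close together, and the groups overlapped. The difference was 0.07 ± 0.05 (SE, limma adjusted p = 0.495), and without off replicate 2 it was 0.0064. The 7 endothelial markers other than Slc2a1 were low in the same 2 libraries, with a mean deviation of -0.22 in on replicate 1 and -0.21 in off replicate 2, while on replicates 2 to 4 had 0.10 to 0.15 and off replicates 1 and 3 had 0.04 and 0.05. The log2 of their summed level ran from 12.65 to 13.05 in on and from 12.67 to 12.93 in off, and none of the 7 was near 0. Markers of pericytes and smooth muscle were at -0.17 in both libraries too. The layout was not particular to vascular markers. The 11 nuclear and intronic transcripts were also lowest in these 2 libraries, at -0.08 in on replicate 1 and -0.21 in off replicate 2. The part of endothelial content, or of any of these lists, in the values of Slc2a1 was not tested. Slc2a3, the neuronal transporter, stayed within 12.44 to 12.51 in all 7 libraries, with a difference of 0.03 ± 0.03 (SE, adjusted p = 0.698).

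Among the preparatory steps of glycolysis 0 of 9 genes passed in limma, and 2, Pfkl and Tpi1, had an unadjusted p under 0.05, both lower in on. Tpi1, the triose phosphate isomerase gene, was 14.09, 13.87, 14.00 and 13.93 in on and 14.06, 14.15 and 14.06 in off. On replicates 2 to 4 lay below every off library and on replicate 1 among them, with a difference of -0.12 ± 0.05 (SE, adjusted p = 0.212). Pfkl, the liver-type phosphofructokinase subunit, was 12.20, 12.02, 12.13 and 12.15 in on and 12.15, 12.30 and 12.24 in off, also overlapping, at -0.11 ± 0.05 (SE, adjusted p = 0.221). Pfkp, the platelet-type subunit, had the largest positive difference of all members, 0.08 ± 0.04 (SE, adjusted p = 0.298). Its values were 13.55, 13.53, 13.62 and 13.60 in on and 13.43, 13.55 and 13.51 in off, so that the groups overlapped through on replicate 2 and off replicate 2. Aldoa was 15.51, 15.33, 15.43 and 15.41 in on and 15.45, 15.58 and 15.51 in off, a difference of -0.10 ± 0.05 (SE, adjusted p = 0.29) that was 0.0076 after the GC and length correction.

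The remaining preparatory genes lay closer to 0. Aldoc, the astrocyte aldolase, was almost level in off (15.13, 15.14 and 15.14) and spread in on (15.23, 15.02, 15.10 and 15.04), with on replicate 1 highest of all 7. The 9 astrocyte markers other than Aldoc had a mean deviation of 0.06 in on replicate 1, and on replicates 2 to 4 had -0.07 to -0.01. In off replicates 1 to 3, where Aldoc was almost level, these markers had -0.02, 0.03 and 0.02. Hk2 was 7.87, 7.76, 7.70 and 7.65 in on and 7.69, 7.73 and 7.70 in off, again with on replicate 1 highest. Hk1 (0.03), Gpi1, the glucose phosphate isomerase gene (-0.02), and Pfkm, the muscle-type phosphofructokinase subunit (-0.03), had differences smaller than their SE of 0.04 each.

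All 6 genes of the payoff steps had differences below 0, and Pgk1 passed. Pgk1 encodes phosphoglycerate kinase, which makes the first ATP of the payoff steps, and spans 106187100 to 106203699 on the plus strand of chromosome X (GRCm38). It was 12.22, 12.14, 12.15 and 12.04 in on replicates 1 to 4 and 12.37, 12.37 and 12.31 in off replicates 1 to 3. Every on library lay below every off library. The mean fell from 12.35 ± 0.04 (SD, n = 3) in off to 12.14 ± 0.07 (SD, n = 4) in on, a difference of -0.21 ± 0.04 (SE, limma adjusted p = 0.0235), or 0.862 times the off level. It passed without on replicate 1 (adjusted p = 0.00116) or on replicate 2 (0.0493) and missed the threshold without on replicate 3 (0.0835), on replicate 4 (0.0852), off replicate 1 (0.0615), off replicate 2 (0.136) or off replicate 3 (0.0676), and with no filter on low values (0.17). The GC and length correction left -0.16 ± 0.03 (SE, adjusted p = 0.0621).

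The other payoff genes overlapped between the groups. Eno1, the widely expressed enolase, was 13.49, 13.33, 13.42 and 13.39 in on and 13.45, 13.58 and 13.54 in off, at -0.11 ± 0.05 (SE, adjusted p = 0.18). Eno2, the neuronal enolase, was 14.97, 14.80, 14.95 and 14.88 in on and 14.96, 15.04 and 14.98 in off, at -0.10 ± 0.05 (SE, adjusted p = 0.27). In both, on replicate 1 lay within the off range and on replicate 2 was lowest. The 9 neuron markers other than Eno2 had a mean deviation of 0.01 in on replicate 1 and -0.04 to -0.03 in on replicates 2 to 4. Off replicate 2 had the highest, 0.09, and off replicates 1 and 3 had -0.0029 and -0.012. Pkm was 15.40, 15.22, 15.34 and 15.30 in on and 15.37, 15.46 and 15.41 in off. Gapdh, glyceraldehyde phosphate dehydrogenase, was 14.72, 14.49, 14.57 and 14.56 in on and 14.62, 14.70 and 14.64 in off, with on replicate 1 above all off libraries and on replicates 2 to 4 below them. The differences were -0.10 ± 0.05 (SE) for Pkm, -0.07 ± 0.05 (SE) for Gapdh and -0.05 ± 0.05 (SE) for Pgam1, the phosphoglycerate mutase gene.

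Lactate dehydrogenase showed the same layout in both subunit genes. Ldha, the subunit known for favouring lactate production, was 12.85, 12.70, 12.82 and 12.78 in on and 12.83, 12.97 and 12.86 in off, at -0.10 ± 0.05 (SE, adjusted p = 0.244). Ldhb, the subunit known for favouring pyruvate, was 13.99, 13.83, 13.89 and 13.84 in on and 13.99, 14.01 and 13.97 in off, at -0.10 ± 0.04 (SE, adjusted p = 0.203). In both genes only on replicate 1 reached the off range. Without it the limma adjusted p of Ldhb was 0.0207, where 8.02% of all tested genes were lower past the threshold. Ldhb did not pass when any other single library was left out. After the GC and length correction the difference of Ldhb was -0.016.

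**Figure D3:**
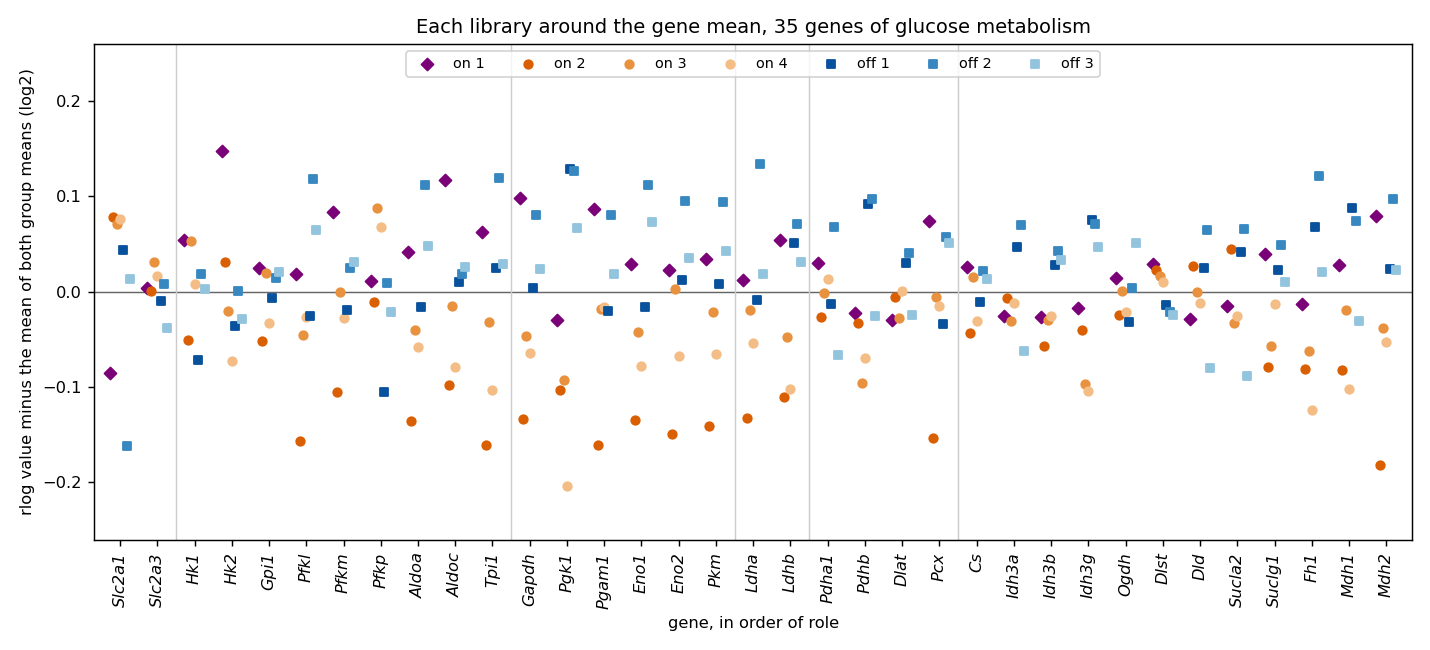
Each library's rlog value minus the mean of both group means (vertical axis, log2) for the 35 members in order of role, with diamonds for on replicate 1, circles for on replicates 2 to 4, squares for off, and lines between the roles. The 4 on libraries lie below all 3 off libraries in Pgk1, Idh3b, Idh3g and Fh1 and above them in Dlst, and on replicate 1 is the highest on library in 27 of 35 genes.

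Pyruvate dehydrogenase genes gave 0 calls in limma and 1 gene, Pdhb, with an unadjusted p under 0.05. Pdhb, the beta subunit of its first enzyme, was 12.02, 12.01, 11.95 and 11.98 in on and 12.14, 12.14 and 12.02 in off. Off replicate 3 lay at the level of on replicate 1, and the difference was -0.11 ± 0.04 (SE, adjusted p = 0.148). Its partner subunit gene Pdha1 differed by 0.01 ± 0.04 (SE) and Dlat, the transacetylase of the complex, by -0.03 ± 0.04 (SE). Pcx, pyruvate carboxylase, which replenishes oxaloacetate in astrocytes, differed by -0.05 ± 0.05 (SE).

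Among the 12 genes listed under the citric acid cycle, the cytosolic Mdh1 included, 11 differences lay below 0 and 0 passed in limma. Of these genes 2, Idh3g and Fh1, had an unadjusted p under 0.05. Of all tested genes, 48.5% lay below 0. The median of the 12 listed genes, -0.046, became 0.0008 once the GC and length trends had been taken out. Its sign thus depended on that step. Idh3g, a regulatory subunit of isocitrate dehydrogenase 3, spans 73778963 to 73786897 on the minus strand of chromosome X (GRCm38). It was 12.07, 12.04, 11.99 and 11.98 in on and 12.16, 12.15 and 12.13 in off, with no overlap. Its difference was -0.13 ± 0.04 (SE, adjusted p = 0.0749), and -0.049 after the GC and length correction. Fh1, fumarase, spans 175600374 to 175625635 on the minus strand of chromosome 1. It was 11.50, 11.44, 11.45 and 11.39 in on and 11.59, 11.64 and 11.54 in off, also without overlap. The difference of Fh1 was -0.14 ± 0.04 (SE, adjusted p = 0.0768), and -0.12 ± 0.03 (SE) after the correction. Both passed without on replicate 1, at a limma adjusted p of 0.0136 for Idh3g and 0.0123 for Fh1, where 8.02% of all tested genes were lower. Neither passed when any other single library was left out. After the GC and length correction the limma adjusted p was 0.452 for Idh3g and 0.123 for Fh1.

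The 3 subunit genes of isocitrate dehydrogenase 3 can be read side by side. Idh3b was 12.91, 12.88, 12.90 and 12.91 in on and 12.96, 12.98 and 12.97 in off, without overlap but with a small difference, -0.07 ± 0.03 (SE, adjusted p = 0.258), that was 0.0006 after the correction. The catalytic subunit gene Idh3a overlapped between the groups, at -0.04 ± 0.04 (SE, adjusted p = 0.63). Dlst, the succinyltransferase of the 2-oxoglutarate dehydrogenase complex, was the 1 member with all on libraries above all off libraries, at 12.33, 12.32, 12.32 and 12.31 against 12.29, 12.28 and 12.28. Its difference was 0.04 ± 0.03 (SE, adjusted p = 0.53), and 0.07 ± 0.03 (SE, adjusted p = 0.225) after the correction. In all, 5 of 35 members had groups without overlap, 4 lower and 1 higher in on, close to the 15.2% of all tested genes (8.09% lower and 7.13% higher).

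The other citric acid cycle members differed little. The malate dehydrogenase genes had the larger values, -0.09 ± 0.05 (SE) for the cytosolic Mdh1 and -0.10 ± 0.05 (SE) for the mitochondrial Mdh2, with adjusted p of 0.298 and 0.311. Mdh2 was 13.24, 12.98, 13.13 and 13.11 in on and 13.19, 13.26 and 13.19 in off, with on replicate 1 among the off libraries. Cs, citrate synthase, Ogdh, the oxoglutarate dehydrogenase gene, Dld, the dehydrogenase shared by both complexes, and Sucla2, a succinyl-CoA ligase subunit, had differences between -0.02 and -0.01. Suclg1, another ligase subunit gene, differed by -0.05 ± 0.04 (SE).

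The members also varied together between libraries of 1 group. On replicate 1 was the highest on library in 27 of 35 members, where it was the highest in 34.2% of all tested genes. On replicate 2 was the lowest on library in 23 of 35, against 28.3% of all genes, and off replicate 2 was the highest off library in 26 of 35, against 33.6%. The mean deviation of the 17 genes of glycolysis and lactate dehydrogenase was 0.05 in on replicate 1 and -0.11, -0.02 and -0.06 in on replicates 2 to 4, a wider spread than the distance between the group means of -0.03 and 0.03. In off replicates 1 to 3 it was -0.005, 0.07 and 0.03, so that on replicate 1 lay among the off libraries. The 16 genes of pyruvate dehydrogenase, pyruvate carboxylase and the citric acid cycle, Mdh1 included, had a narrower range, from -0.04 to 0.01 in on and from -0.01 to 0.06 in off. On replicate 1 again overlapped the off libraries. The 11 nuclear and intronic transcripts ran the other way, at 0.13 to 0.19 in on replicates 2 to 4. They were at -0.08 in on replicate 1 and -0.21 to -0.03 in off. Such transcripts can move with RNA quality and nuclear content, neither of which was measured here. Their median difference of 0.193 fell to 0.123 once the trends with GC content and length had been removed. Rian (-0.042), Xist (-0.117) and Kcnq1ot1 (-0.053) then lay below 0, and the others of the list stayed above it. Microglia markers were at 0.06 in on replicate 1, -0.12 to -0.03 in on replicates 2 to 4 and -0.03, 0.13 and 0.04 in off replicates 1 to 3. Oligodendrocyte markers were at 0.10 in on replicate 1, -0.12 to -0.05 in on replicates 2 to 4 and -0.07, 0.03 and 0.13 in off. The part of these lists in the members' values was not tested.

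**Figure D4:**
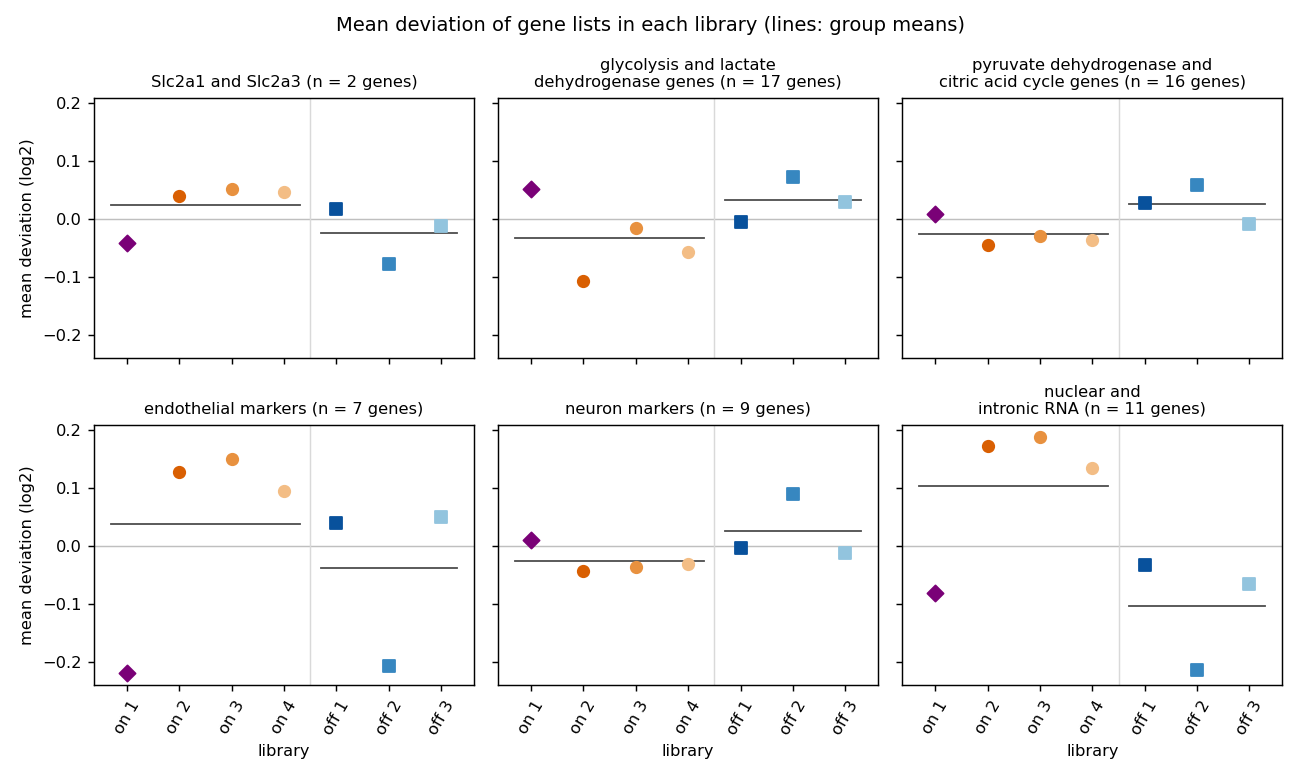
Mean deviation of 6 gene lists from the mean of both group means (vertical axis, log2) in each of the 7 libraries, with horizontal lines for the group means. On replicate 1 and off replicate 2 are lowest among endothelial markers (-0.22 and -0.21), in nuclear and intronic RNA and in the mean of the 2 glucose transporters. Slc2a3 alone was lowest in off replicate 3 (12.44). On replicate 1 lies among the off libraries in glycolysis.

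The balance between isoforms was compared within each library as the difference of 2 genes' values, with an exact two-sided permutation test over the 35 splits of 7 libraries, whose smallest p is 0.0286. Adjusted over the 7 pairs, 1 pair alone cannot go below 0.2, and 5 pairs would have to reach the smallest p for any to pass, so the adjusted p (0.4 to 0.886) says little. The largest shift was that of Pfkm minus Pfkp, 0.52, 0.35, 0.36 and 0.35 in on and 0.54, 0.47 and 0.50 in off. On replicates 2 to 4 lay below every off library and on replicate 1 among them, with a shift of -0.10 (exact permutation p = 0.114). Pfkl minus Pfkm shifted by -0.08 (exact permutation p = 0.0857). The smallest shifts were those of Ldha minus Ldhb (0.006), Hk1 minus Hk2 (-0.010) and Eno1 minus Eno2 (-0.018), against SDs of 0.026 to 0.095 among the on libraries. Per length of the longest transcript, the log2 ratio in off was -1.01 for Eno1 over Eno2, -1.58 for Ldha over Ldhb and 1.22 for Aldoa over Aldoc. Without the length term these were -1.48, -1.11 and 0.38, so they depend on which transcript is expressed.

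Beyond the members, 110 genes of 9 surrounding lists were looked up, of which 101 could be tested and 2 passed, both lower in on, a share close to the 1.79% of all tested genes. Mpc2, a subunit of the mitochondrial pyruvate carrier, was 10.88, 10.94, 10.92 and 10.92 in on and 11.12, 11.13 and 11.03 in off, a fall of 0.17 ± 0.04 on the log2 scale (SE, adjusted p = 0.0354). Every on library lay below every off library, with -0.073 left by the GC and length correction. Its partner subunit gene Mpc1 differed by -0.03 ± 0.04 (SE, adjusted p = 0.683). Slc2a6, a transporter of the same family as Slc2a1, was 9.35, 9.29, 9.33 and 9.27 in on and 9.43, 9.51 and 9.59 in off, at -0.20 ± 0.05 (SE, adjusted p = 0.0484). Mpc2 missed the threshold in all fits without 1 library other than that without on replicate 1, and Slc2a6 in all but those without on replicate 1 or off replicate 1.

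In the transport list, 1 of 16 tested genes passed and 13 differences lay below 0, with a median of -0.05, and of 9 other sugar transporters 1 passed, with a median of 0.01. In the other 7 lists 0 genes passed in limma, and the gene with the smallest p is named for each. Their counts at an unadjusted p under 0.05 stand against 10.6% of all tested genes lower and 10% higher, with no test of the lists. Of 17 further citric acid cycle genes, 13 lay below 0 and 2 had an unadjusted p under 0.05. Sdhc, a membrane anchor of succinate dehydrogenase, led them at -0.15 ± 0.04 (SE, adjusted p = 0.0552). Among 8 other isoforms of member enzymes 1 gene, the muscle mutase Pgam2, had an unadjusted p under 0.05 (-0.17 ± 0.06, SE). Pentose phosphate genes had 2 of 8 at that level, with Pgls, the phosphogluconolactonase gene, at -0.17 ± 0.05 (SE, adjusted p = 0.0824). Its difference was 0.041 after the GC and length correction, so its sign depended on it.

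The 4 lists of regulation and storage had medians above 0. With the GC and length correction these medians ran from -0.00066 (glycogen) to 0.019 (pyruvate dehydrogenase regulation). Glycogen genes had 2 of 13 at an unadjusted p under 0.05, both higher in on, with a median of 0.04, and the phosphoglucomutase gene Pgm2 led at 0.15 ± 0.05 (SE, adjusted p = 0.135). Genes of phosphofructokinase 2 and other regulators had a median of 0.01 over 9, with Pfkfb4 at 0.12 ± 0.05 (SE, adjusted p = 0.211) as the 1 gene under an unadjusted 0.05. Those of pyruvate dehydrogenase regulation had a median of 0.02 over 8, with 1 gene, Pdpr, at 0.09 ± 0.04 (SE, adjusted p = 0.211). In the hypoxia-inducible factor pathway 2 of 13 had an unadjusted p under 0.05. Egln2, a prolyl hydroxylase that marks the factor for breakdown, was at -0.17 ± 0.05 (SE, adjusted p = 0.0865), and Arnt, the factor's constant partner, was at 0.20 ± 0.07 (SE, adjusted p = 0.127). Over all 101 genes the median was -0.01, and the GC and length correction left -0.0036.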

How the data were processed

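RNA of 7 mouse brain libraries was analysed, 4 on and 3 off, grouped by their titles. Per the labels' protocols, RNA came from a Qiagen miRNeasy kit and libraries from the Illumina TruSeq Stranded mRNA kit. STAR 2.5.2 and BWA 0.7.14-r1136 (alignment tools), cutadapt 1.9.1, DESeq2 1.16.1, Subread 1.5.3 and the build GRCm38 stand in the submitters' processing notes, which give no roles. The authors deposited rlog values, a log2 scale with shrunken deviations, as the name of their table and its range of values show. The sources used here give no strand setting or depth, so counting intervals are left out.

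Two-sided tests used limma 3.58.1 (R 4.3.3) with group as the term and an intensity trend, for 17896 genes with a mean of at least 3, at a Benjamini-Hochberg adjusted p of 0.05. Differences are on minus off with moderated SE. Symbols, positions and the longest basic transcript came from GENCODE M21, which held 48144 of the 48526 genes. The GC and length correction removed a smooth trend per library (mgcv 1.9.3, 3 classes of mean value, 17831 genes, 99.6%). Matching transcripts were found with blastn. The methods were tested on simulated data. The members and lists were chosen with earlier results of these data known. The rule for named genes took all members, every called gene of each surrounding list or its smallest p, and marker lists by their ranges. Mpc1, Arnt and the called olfactory bulb genes were named after their values were seen. Alternatives were other filters, scalings, variance models and a threshold of 0.1, the replicate number as a block, the correction and each library left out.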

Additional observations from a re-analysis of the deposited data

Results flagged for a closer look

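A gap test of the 4 on libraries was run on 51 values, the 35 members, the 7 isoform pairs and the mean deviations of 9 member lists. It set 1 library apart in 4 of them, against about 2.55 by chance (1 group in 20). The pairs and list means are built from the members, so the 51 values are not independent and the 4 are not separate results. On replicate 1 was low in Slc2a1, at 11.62 where on replicates 2 to 4 had 11.77 to 11.78. It was also low in the mean deviation of the 2 glucose transporters, which includes Slc2a1, at -0.041 against 0.040 to 0.051. It was high in Pfkm minus Pfkp, at 0.522 against 0.355 to 0.362. On replicate 2 was low in Idh3b, at 12.88 against 12.90 to 12.91. The off group has 3 libraries, too few for this test.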

How the results depend on the processing

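The count of genes called, 466, was 7 with no filter, 237 without the intensity trend, 2215 with array weights, 1182 at a threshold of 0.1, 60 after the GC and length correction and 43 to 2917 with 1 library left out. The count of members called, 1, was 4 with array weights, 3 at a threshold of 0.1, 0 with no filter or after the correction, and 0 to 7 with 1 library left out. For the 2 called genes of the surrounding lists, the count was 1 with median centring or quantile normalization, 12 with array weights, 6 at a threshold of 0.1, 0 with no filter, without the trend or after the correction, and 0 to 14 with 1 library left out. The replicate numbers share no stated source, and same-numbered libraries did not deviate together (correlations of -0.228, -0.1 and 0.0176 over genes). With the replicate number as a block, in which on replicate 4 has no partner, 30 genes, 0 members and 0 surrounding genes were called by limma, and 6, 0 and 0 with the correction as well. The block also ended the call of Pgk1 (-0.18, adjusted p = 0.199). The median of the members, -0.05, was -0.0042 after the correction, -0.0054 with the block added and -0.0821 to -0.0369 with 1 library left out.

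Of the 35 members, 15 had another sign in some setting, none of them with an absolute difference above 0.0355 or an adjusted p under 0.644, and the cause was not tested. After the GC and length correction, without and with the block, the differences were 0.0185 and 0.0230 (Gpi1), 0.0208 and 0.0223 (Pfkm), 0.0076 and 0.0044 (Aldoa), 0.0337 and 0.0355 (Gapdh), 0.0148 and 0.0054 (Pgam1), 0.0034 and 0.0094 (Cs), 0.0063 and 0.0120 (Dld), and 0.0096 and 0.0163 (Sucla2). Without the block they were -0.0042 (Hk2), 0.0006 (Idh3b), 0.0085 (Suclg1) and 0.0010 (Mdh2), and with it 0.0116 (Aldoc). Quantile normalization gave 0.0119 (Aldoc) and 0.0012 (Sucla2), and array weights gave -0.0006 (Pdha1). With 1 library left out the range was -0.0488 to 0.024 (Dld), -0.0353 to 0.0065 (Ogdh), -0.0236 to 0.0438 (Pdha1), -0.057 to 0.0059 (Pfkm) and -0.0611 to 0.016 (Sucla2). Isoform shifts changed sign for Hk1 minus Hk2 (0.0078 with quantile normalization, 0.0614 after the correction, -0.0388 to 0.0192 with 1 library left out), Ldha minus Ldhb (-0.0212 after the correction, -0.0224 to 0.0394), Slc2a1 minus Slc2a3 (-0.031 to 0.0806), Aldoa minus Aldoc (0.0138 after the correction) and Eno1 minus Eno2 (0.0238 after it). Shrinkage of rlog values limits what the low gene Hk2 can show.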
